A study of Mus musculus with 20 samples.

Results

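The IL-20 family is a group of cytokines related to IL-10 that signal mainly to epithelial cells, and it was followed here through 10 genes: the ligands Il19, Il20, Il24, Il22 and Il10, and the receptor genes Il20ra, Il20rb, Il22ra1, Il22ra2 and Il10rb. The members were chosen by gene symbol, and each of the 10 was read by 1 probe set that carried a single symbol, out of 22180 genes tested. They were measured in abdominal mouse skin on Affymetrix arrays, with 5 arrays from 5 animals in each of 4 groups. The first group was zfp36 fl/fl K14 cre mice treated with imiquimod, here called knockout, and the second was zfp36 fl/fl littermates treated with imiquimod, called control. The remaining groups were knockout and control mice under mock treatment. All 20 mice therefore carried floxed Zfp36 alleles, and only the knockouts carried the Cre recombinase, driven by the keratin 14 promoter of basal keratinocytes. Imiquimod, a Toll-like receptor 7 agonist that causes a psoriasis-like inflammation, was applied on 5 consecutive days, and skin was taken 4 hours after the last application. The sources used here give neither age nor sex of the mice. The study asked how loss of Zfp36 in keratinocytes alters the skin's response to imiquimod.

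IL-19, IL-20 and IL-24 bind a receptor made of IL-20RA and IL-20RB, and IL-20 and IL-24 also bind one made of IL-22RA1 and IL-20RB. IL-22 uses IL-22RA1 with IL-10RB, while IL-22RA2 is a secreted receptor that captures IL-22 and blocks it, and IL-10 uses IL-10RB with IL-10RA. These receptors signal through Janus kinases to STAT3, and in keratinocytes the family is known for driving antimicrobial genes and epidermal thickening. Zfp36 encodes tristetraprolin, which binds AU-rich elements in messenger RNAs, cytokine messengers among them, and promotes their decay.

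The arrays held 41345 probe sets, and the median of an array was 4.94 to 5.04, with the scale taken to be log2 from the values. Zfp36 checked the genotype labels. It averaged 6.40 ± 0.85 in knockout and 8.0 ± 0.26 in control skin under imiquimod, and 5.43 ± 1.54 in knockout and 7.46 ± 0.22 in control skin under mock treatment (SD, n = 5 each). The mock knockout arrays read 5.12, 6.84, 7.12, 4.61 and 3.47 in replicates 1 to 5, so replicates 2 and 3 lay close to the lowest mock control, 7.22. The exact two-sided permutation p was 0.00794 in each treatment, the smallest that 5 arrays against 5 allow. In limma over all genes the differences of -1.60 and -2.03 did not pass (adjusted p = 0.221 and 0.999). Cells other than keratinocytes keep the gene, and where the probe set lies relative to the floxed part is not known, so the check is limited. Keratinocyte genes were high throughout, with Krt14 between 10.54 and 12.31 and Krt10 between 11.43 and 12.55. Arrays stood apart in hair content: the mean of 22 hair shaft and follicle genes was 8.97 in knockout imiquimod replicate 1 (5.61 to 7.38 in the rest of its group) and 9.12 in control imiquimod replicate 5 (5.43 to 5.99). It was 6.01 in knockout mock replicate 3 (7.75 to 9.91) and 6.04 in control mock replicate 5 (9.01 to 10.004). Imiquimod differences whose size or call turns on these 4 arrays are given with and without them. Knockout mock replicates 2 and 3, the highest of their group in Zfp36, had its lowest hair means, 7.75 and 6.01, and a link was not tested. With imiquimod the median difference of the 22 hair genes was -1.97 in knockouts and -2.83 in controls. In limma 0 of 22 passed in either genotype, and 8 in knockouts and 21 in controls had an unadjusted p under 0.05, all lower. The hair mean thus moved with the treatment. Its group median was 9.505 in knockout and 9.87 in control mock skin, against 5.925 and 5.96 under imiquimod. Fits with the hair mean as a covariate, given below, therefore cannot fully separate an imiquimod difference from hair content. Of 8 skeletal muscle markers 6 were lower with imiquimod in knockouts and 0 in controls (0 at an unadjusted p under 0.05), with medians of -0.97 and -0.03. Of 6 adipocyte markers 5 were lower in knockouts and 1 in controls, with medians of -1.02 and -0.54. Between genotypes under imiquimod 1 of the 8 muscle markers was called, lower in knockouts, against 0.171% of all genes called lower. An unadjusted p under 0.05 was found for 7 of the 8, all lower, and for 2218 of 22180 genes. The muscle median was -0.94. For adipocyte and hair markers 0 were called, with medians of -0.40 and 0.26. In whole skin, fewer cells of a type and less RNA per cell cannot be told apart.

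Imiquimod raised 4 of the 10 members in knockout skin (Il19, Il20, Il24 and Il10) and lowered 1 (Il20ra). The test was limma with Benjamini-Hochberg adjustment over the 22180 genes at a threshold of 0.05, which called 20.8% of all genes in that comparison, 11.1% higher and 9.71% lower. In control skin 4 of 10 rose (Il20, Il10, Il22ra2 and Il10rb), and 0 fell, where limma called 10.8% of all genes, 6.47% higher and 4.37% lower. An unadjusted p under 0.05 was found with imiquimod for 8 members and 6925 of 22180 genes in knockouts, and for 5 members and 5300 genes in controls. The median log2 difference of the members was 0.32 in knockout and 0.25 in control skin, and that of all genes was -0.002 and -0.004. Il20 and Il10 were thus called in both genotypes. Between genotypes under imiquimod 1 of 10 members was called higher, Il19, against 0.374% of all genes called higher and 0.546% called in either direction, and 3 members and 2218 genes had an unadjusted p under 0.05. In mock skin 0 of 10 passed in limma, and 0.00902% of all genes were called in either direction. An unadjusted p under 0.05 was found there for 1 member (Il20) and 708 of 22180 genes. These shares of all genes are also the ones to set beside the counts of each gene list in the same comparison.

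The arrays of the groups compared did not overlap for 3 members with imiquimod in knockouts (Il19, Il20 and Il10), all higher, where 7.16% of all genes were higher and 6.53% lower without overlap. In controls they did not overlap for 3 (Il20, Il10 and Il22ra2), all higher, against 5.6% of all genes higher and 2.74% lower. Between genotypes under imiquimod they did not overlap for Il19, against 1.3% of all genes higher and 1.17% lower.

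**Figure D1:**
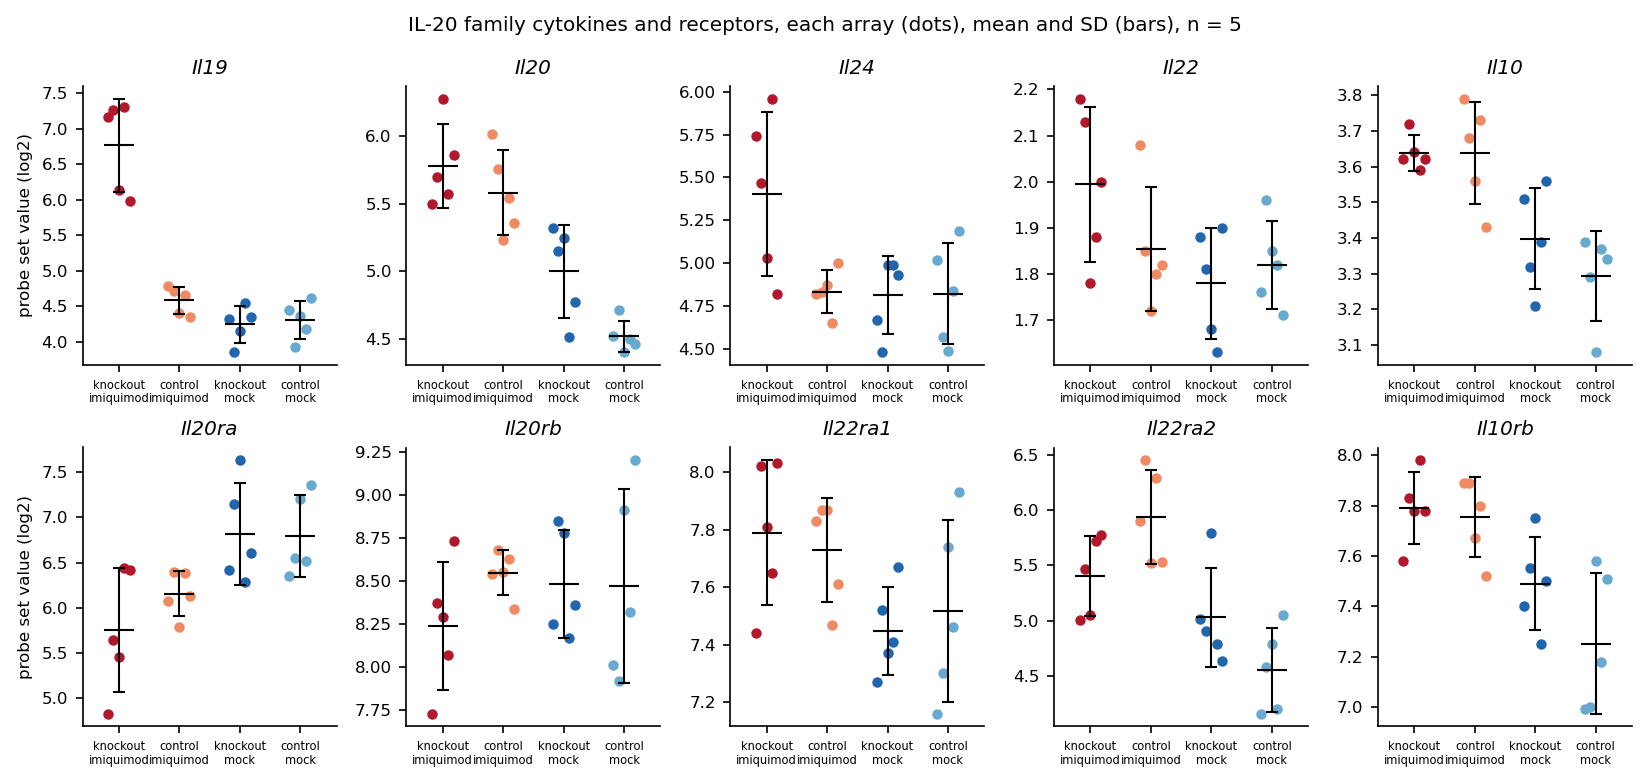
Probe set values on the log2 scale (vertical axes) of the 10 members in the 4 groups, with each array as a dot and the group mean with its SD as bars (n = 5). The 5 knockout imiquimod arrays of Il19 lie between 5.98 and 7.31, above the 15 other arrays, while Il20 is high in imiquimod-treated skin of both genotypes.

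Il19, which encodes a ligand of the IL-20RA and IL-20RB receptor made by keratinocytes and myeloid cells, stood out. Its log2 values were 7.16, 7.26, 6.13, 7.31 and 5.98 in imiquimod-treated knockouts, against 4.79, 4.71, 4.41, 4.65 and 4.35 in imiquimod-treated controls. In mock skin they were 4.32, 3.85, 4.15, 4.54 and 4.35 in knockouts, against 4.45, 3.92, 4.36, 4.18 and 4.61 in controls. Every imiquimod-treated knockout array lay above each array of the other 3 groups, and those 3 groups overlapped. Imiquimod raised Il19 5.76-fold in knockout skin (2.53 ± 0.23 on the log2 scale with its SE, 5 arrays a group, adjusted p = 1.24e-07). In control skin the difference was 0.28 with a 95% interval from -0.19 to 0.75 (adjusted p = 0.525). Under imiquimod the knockouts were 4.55-fold higher than the controls (2.19 ± 0.23 on the log2 scale with its SE, 5 arrays a group, adjusted p = 2.29e-05), the ninth largest rise among all genes when ranked by size.

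The difference between the 2 responses was tested directly as knockout response minus control response. For Il19 it was 2.25 with a 95% interval from 1.58 to 2.91 (adjusted p = 0.00549), and 4 of 22180 genes passed, or 0.018%, all 4 with the more positive response in knockouts. The other 3, named after their values were seen, were Arg1, which encodes the arginine-degrading enzyme arginase 1, Fetub, which encodes a secreted cystatin-like protein, and Cdhr1, a cadherin-related gene. Their differences were 1.60, 2.07 and 1.01, and Arg1 rose by 0.55 in knockouts while it fell by 1.05 in controls. None of the other 9 members passed, and their differences ran from -1.01 for Il22ra2 to 0.58 for Il24. Without the 4 arrays that stood apart in hair genes, the Il19 difference was 1.99 and its call was lost (adjusted p = 0.0852). Without the same arrays Il19 kept its calls for imiquimod in knockouts (2.41, adjusted p = 2.76e-06) and for genotype under imiquimod (2.03, adjusted p = 0.000899). With the hair mean as a covariate the difference in responses was 2.22 (adjusted p = 0.00255).

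**Figure D2:**
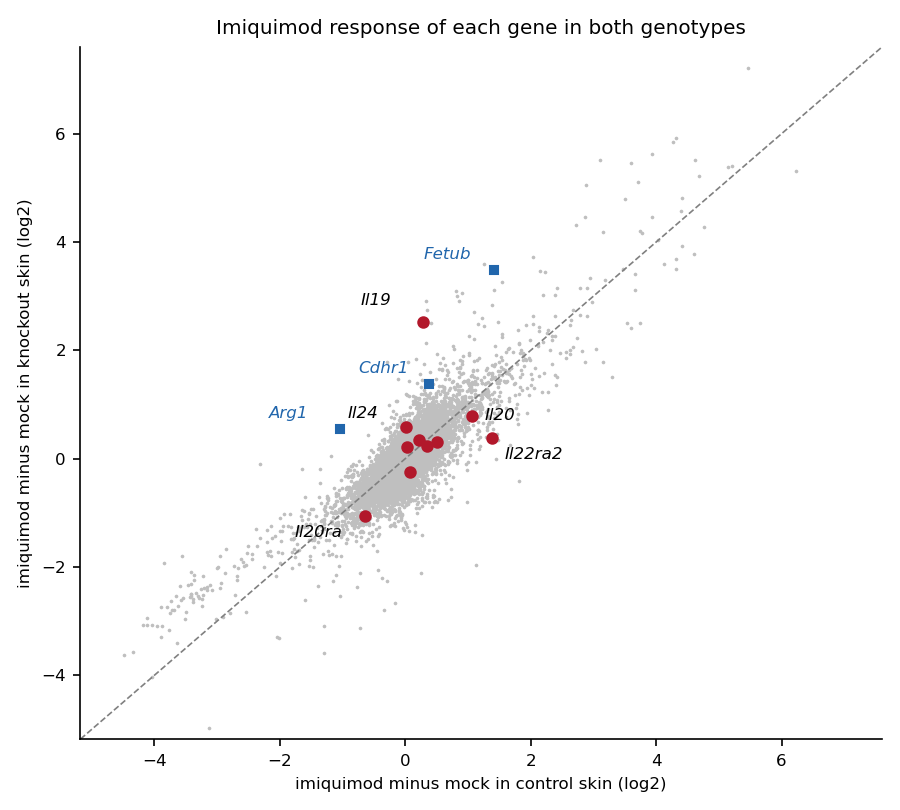
Imiquimod minus mock on the log2 scale in control skin (horizontal axis) and in knockout skin (vertical axis), for 22180 genes in grey, with the 10 members as red dots and Arg1, Fetub and Cdhr1 as blue squares. Equal responses lie on the dashed line. Il19 lies at 0.28 in controls and 2.53 in knockouts. Il20 and Il22ra2 lie below the line, as do Il10, Il20ra, Il20rb and Il10rb.

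Il20, the namesake ligand, behaved otherwise. It read 5.5, 5.70, 6.28, 5.57 and 5.86 in imiquimod-treated knockouts, against 6.02, 5.76, 5.23, 5.54 and 5.36 in imiquimod-treated controls. It read 5.32, 5.15, 5.25, 4.51 and 4.77 in mock knockouts, against 4.52, 4.71, 4.4, 4.50 and 4.46 in mock controls. Imiquimod-treated arrays of each genotype lay above all mock arrays of that genotype, and the genotypes overlapped in both treatments. Imiquimod raised Il20 1.72-fold in knockouts (0.78 ± 0.17 on the log2 scale with its SE, 5 arrays a group, adjusted p = 0.00229) and 2.09-fold in controls (1.06 ± 0.17, adjusted p = 0.000231). Under imiquimod the genotypes differed by 0.20 with a 95% interval from -0.15 to 0.55 (adjusted p = 0.782). In mock skin the knockout mean was 0.48 above the control mean (interval 0.13 to 0.84), which did not pass over all genes (adjusted p = 0.999).

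Il19 and Il20 lie next to each other on mouse chromosome 1, in the order Il24, Il20, Il19, Il10, and their start regions are shown because these neighbours had different patterns across the groups. The sequences are the 250 bases before the start in the RefSeq table of build GRCm38.p6, 5′ to 3′ on the minus strand, the strand of both genes. They cover chr1:130940116-130940365 (Il19) and chr1:130911297-130911546 (Il20). Capitals mark matches to 4 motifs searched on both strands, which were TGANTCA for AP-1, TTCNNNGAA for STAT factors, TATAAA for the TATA box and the NF-kB motif.
Il19: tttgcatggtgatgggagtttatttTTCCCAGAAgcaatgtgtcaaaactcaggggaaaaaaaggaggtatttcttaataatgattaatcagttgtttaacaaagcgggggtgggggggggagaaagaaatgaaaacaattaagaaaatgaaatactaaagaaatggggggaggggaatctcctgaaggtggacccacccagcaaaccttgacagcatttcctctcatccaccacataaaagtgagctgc
Il20: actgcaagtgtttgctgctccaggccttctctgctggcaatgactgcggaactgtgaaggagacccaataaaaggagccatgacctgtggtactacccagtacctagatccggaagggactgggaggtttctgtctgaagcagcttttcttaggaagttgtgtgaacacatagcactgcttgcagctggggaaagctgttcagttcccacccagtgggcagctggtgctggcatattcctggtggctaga
Il19 held 1 STAT match, 216 bases before the start, and no match to the other 3 motifs, and Il20 held no match to any of the 4. Among 32851 start regions of the same length, 7.02% held the STAT motif, 6.75% the AP-1 motif, 1.41% the NF-kB motif and 12.4% the TATA motif. The table held an entry for 6 of the 10 members. A match is a stretch of letters, and no binding was measured here.

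Il24, whose product uses both IL-20RB receptors, resembled Il19 on a smaller scale. It read 5.74, 5.47, 5.03, 5.96 and 4.82 in imiquimod-treated knockouts, against 4.82, 4.83, 4.87, 4.65 and 5.0 in imiquimod-treated controls. It read 4.67, 4.48, 4.99, 4.99 and 4.93 in mock knockouts, against 5.02, 4.57, 4.49, 4.84 and 5.19 in mock controls. Replicates 1, 2 and 4 of the imiquimod-treated knockouts lay above all 15 arrays of the other groups, and replicates 3 and 5 lay among them. Imiquimod raised Il24 1.51-fold in knockouts (0.59 ± 0.18 on the log2 scale with its SE, 5 arrays a group, adjusted p = 0.024), against 0.01 in controls (interval -0.37 to 0.39, adjusted p = 0.982). The knockout call was lost without knockout imiquimod replicate 1, 2 or 4 (adjusted p = 0.0664, 0.0525 and 0.0788), without knockout mock replicate 1 or 2 (0.0511 and 0.0725), without the 4 arrays apart in hair genes (0.0522) and in a fit on the 2 groups alone (0.0631). Imiquimod-treated knockouts and controls differed by 0.57 (interval 0.19 to 0.95, adjusted p = 0.221).

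Among the 5 imiquimod-treated knockout arrays, replicates 1, 2 and 4, which were high for Il24, were also the 3 highest for Il19, at 7.16, 7.26 and 7.31 against 6.13 and 5.98 in replicates 3 and 5. Il20 ran the other way in the same arrays, with 5.5, 5.70 and 5.57 in replicates 1, 2 and 4 and 6.28 and 5.86 in replicates 3 and 5. Across the 20 arrays with group means removed, Il19 and Il24 correlated at r = 0.776, a description over arrays that share group, tissue and scale. Zfp36 itself read 5.47, 7.41, 6.12, 7.18 and 5.82 in knockout imiquimod replicates 1 to 5. Replicates 2 and 4 were the highest in both Zfp36 and Il19, replicates 3 and 5 were lower in both, and replicate 1 was lowest in Zfp36 and high in Il19. The mean log2 value of 31 keratinocyte genes that IL-20 family cytokines raise was 8.27, 8.45 and 8.68 in replicates 1, 2 and 4, against 7.93 and 8.0 in replicates 3 and 5. The hair mean was also highest in replicates 1, 2 and 4, at 8.97, 5.925 and 7.38. In replicates 3 and 5 it was 5.73 and 5.61. The adipocyte marker mean was lowest in replicates 1, 2 and 4, at 6.92, 7.10 and 6.74, against 7.38 and 7.46. The keratinocyte marker mean did not split in this way. These splits were noticed after the values were seen and were not tested.

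**Figure D3:**
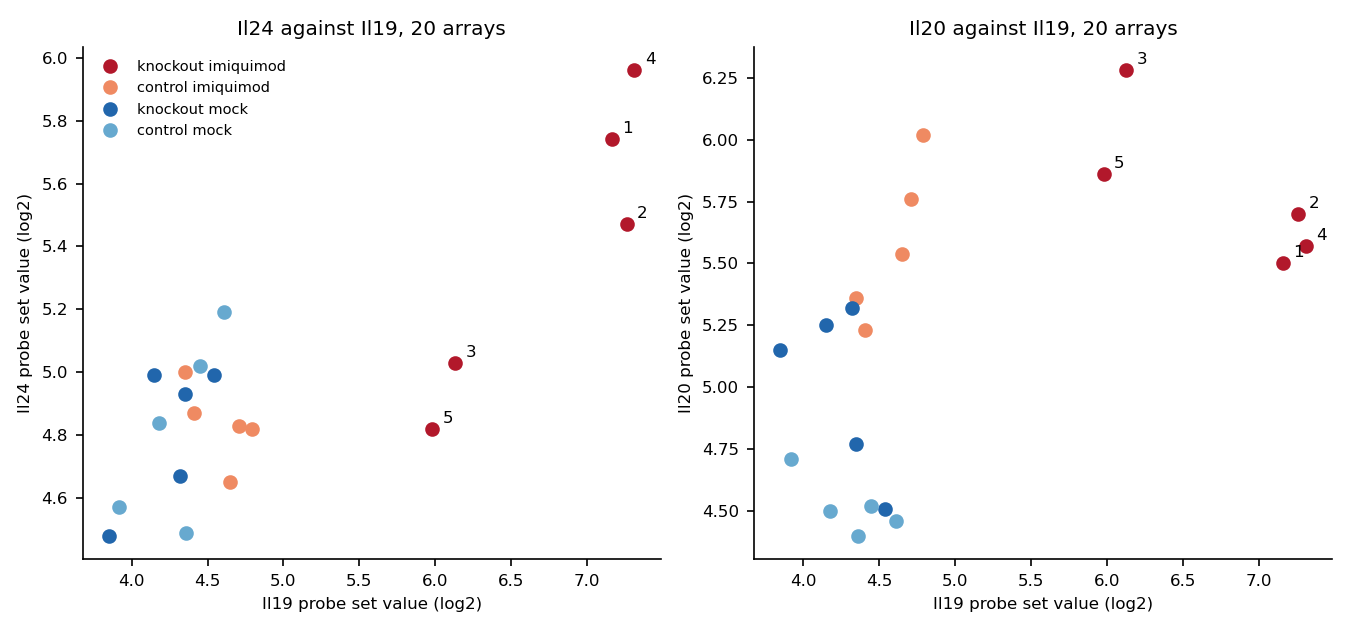
Il24 (left) and Il20 (right) against Il19, all as log2 probe set values, with each of 20 arrays as a dot coloured by group and the knockout imiquimod arrays numbered by replicate. Replicates 1, 2 and 4 lie at the top right for Il24, and lie below replicates 3 and 5 for Il20.

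By a rule on likeness, the 3 genes with the highest Pearson r over the 20 arrays were found for each member and are given here for Il19, Il24 and Il20. For Il19 they were Tmprss11g, a serine protease gene of epithelia (r = 0.965), Il17f, a cytokine of the IL-17 family (r = 0.951), and Sod2, the mitochondrial superoxide dismutase (r = 0.94). Tmprss11g read 7.81, 7.72, 6.05, 8.58 and 6.58 in imiquimod-treated knockouts, against 5.27, 5.15, 5.32, 5.01 and 5.0 in imiquimod-treated controls. It showed the same order of replicates as Il19 to the extent that 1, 2 and 4 were highest. Il17f was also higher under imiquimod in knockouts than in controls (log2 difference 1.19, adjusted p = 0.00126), and its difference in responses was 1.11 (adjusted p = 0.186). For Il24 the closest were Cxcl2, a neutrophil-attracting chemokine (r = 0.868), Dsg1c, a desmoglein gene (0.851), and Rnd1, a small GTPase gene (0.843). Cxcl2 reached 7.39 in knockout imiquimod replicate 4 and 4.29 to 5.53 in the other 4, against 3.58 to 3.97 in imiquimod-treated controls. For Il20 they were Aadacl3, an arylacetamide deacetylase-like gene (0.915), Gsdmc, a gasdermin gene (0.913), and Map4k5, a kinase gene (0.909). Aadacl3 was 1 of the 2 genes called between genotypes in mock skin (log2 difference 1.21, adjusted p = 0.0488), the other being Chil1, a chitinase-like gene named after its value was seen. The likeness over 20 arrays reflects the 4 groups as well as variation within them, and the r within groups was 0.789 for Tmprss11g with Il19, 0.749 for Cxcl2 with Il24 and 0.484 for Aadacl3 with Il20.

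Il22, which encodes the ligand of IL-22RA1 and IL-10RB made mainly by lymphocytes, read at the bottom of the array's scale. It read 2.18, 2.13, 1.78, 1.88 and 2.0 in imiquimod-treated knockouts, against 2.08, 1.85, 1.72, 1.80 and 1.82 in imiquimod-treated controls. It read 1.88, 1.81, 1.68, 1.63 and 1.90 in mock knockouts, against 1.76, 1.96, 1.85, 1.82 and 1.71 in mock controls. The groups overlapped throughout, and 0.0812% of all genes had a lower mean. The imiquimod difference was 0.21 in knockouts (interval 0.03 to 0.40, adjusted p = 0.0992) and 0.03 in controls (interval -0.15 to 0.22, adjusted p = 0.884). In knockouts it was 0.14 without the 4 arrays apart in hair genes (adjusted p = 0.38), 0.27 with the hair mean as a covariate (adjusted p = 0.0471) and 0.27 without knockout imiquimod replicate 3 (adjusted p = 0.0422). Iltifb, a near copy of Il22 beside it on chromosome 10, averaged 2.01 in knockout and 2.03 in control skin under imiquimod, and 2.04 in knockout and 1.92 in control skin under mock treatment. The 2 probe sets may share signal. With no measure of background used here, a change in Il22 could not be separated from the floor of the array. The 9 T cell markers measured had 2 members lower with imiquimod in knockouts, Cd3e at -0.78 and Cd3g at -1.34, both named after their values were seen. In controls 0 of 9 passed in limma, and at an unadjusted p under 0.05 there were 2 lower and 1 higher. The mean level of the 9 under imiquimod was 4.90 to 5.11 in knockout and 5.05 to 5.31 in control skin. Under mock treatment it was 5.23 to 5.64 in knockout and 5.08 to 5.61 in control skin. The part of T cells in the Il22 values was not tested.

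Il10, the anti-inflammatory cytokine for which the wider family is named, rose slightly in both genotypes. It read 3.62, 3.72, 3.64, 3.59 and 3.62 in imiquimod-treated knockouts, against 3.79, 3.68, 3.56, 3.73 and 3.43 in imiquimod-treated controls. It read 3.51, 3.32, 3.21, 3.39 and 3.56 in mock knockouts, against 3.39, 3.29, 3.08, 3.37 and 3.34 in mock controls. Imiquimod-treated arrays lay above the mock arrays of the same genotype, by margins of a few hundredths. The difference was 0.34 ± 0.08 in controls (SE, 5 arrays a group, adjusted p = 0.0102) and 0.24 ± 0.08 in knockouts (adjusted p = 0.0473). The knockout call was fragile: it was lost in 14 of 20 fits with 1 array left out, with adjusted p between 0.0517 and 0.128. These were the fits without any 1 of the knockout imiquimod arrays, knockout mock replicates 2, 3 or 4, control imiquimod replicates 2, 3 or 4, or control mock replicates 1, 2 or 4. It was also lost without the 4 arrays apart in hair genes (0.20, adjusted p = 0.135) and with the hair mean as a covariate (0.25, adjusted p = 0.0659). Both imiquimod-treated groups averaged 3.64, and their difference was 0 with an interval from -0.17 to 0.17. Il10 was dim, with 15.4% of genes at a lower mean. Of the 9 macrophage and monocyte markers measured 3 rose in each genotype, Adgre1, Cd68 and Itgam, all named after their values were seen. Their list's mean level was 7.46 to 8.13 in knockout and 7.28 to 8.03 in control skin under imiquimod, and 7.07 to 7.84 in knockout and 6.62 to 7.91 in control skin under mock treatment. The part of these cells in the Il10 difference was not tested.

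Among the receptor genes Il20ra, the subunit shared by all 3 ligands of the first receptor, was the 1 member that fell. It read 4.83, 5.64, 5.46, 6.44 and 6.42 in imiquimod-treated knockouts, against 6.42, 7.15, 7.63, 6.28 and 6.60 in mock knockouts. It read 6.08, 6.40, 5.79, 6.38 and 6.13 in imiquimod-treated controls, against 6.35, 6.55, 7.20, 6.52 and 7.36 in mock controls. Replicates 1, 2 and 3 of the imiquimod-treated knockouts were below every mock knockout array, and replicates 4 and 5 were not. The log2 difference was -1.06 ± 0.29 in knockouts (SE, 5 arrays a group, adjusted p = 0.0134), a 2.08-fold lower level, and -0.64 in controls (interval -1.25 to -0.03, adjusted p = 0.186). The knockout call was lost without the 4 arrays apart in hair genes (-0.62, adjusted p = 0.0848), with -0.49 in controls (adjusted p = 0.208), while with the hair mean as a covariate both genotypes passed (-1.43, adjusted p = 0.000265 in knockouts, and -1.15, adjusted p = 0.0096 in controls).

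Il20rb, the subunit common to both IL-20RB receptors, did not pass in any comparison. It lay between 7.73 and 8.73 in knockout and between 8.34 and 8.68 in control skin under imiquimod, and between 8.17 and 8.85 in knockout and between 7.92 and 9.20 in control skin under mock treatment. All 4 groups overlapped. The imiquimod difference was -0.24 in knockouts (interval -0.70 to 0.21) and 0.08 in controls (interval -0.38 to 0.53). With the hair mean as a covariate it was -0.60 in knockouts (adjusted p = 0.00498) and -0.41 in controls (adjusted p = 0.12). Without the 4 arrays apart in hair genes it was -0.04 in knockouts (adjusted p = 0.926) and 0.31 in controls (adjusted p = 0.335). Il22ra1, the subunit that lets epithelium respond to IL-22, lay between 7.44 and 8.03 in knockout and between 7.47 and 7.87 in control skin under imiquimod, and between 7.27 and 7.67 in knockout and between 7.16 and 7.93 in control skin under mock treatment. Its imiquimod difference was 0.34 in knockouts (interval 0.05 to 0.64, adjusted p = 0.0961) and 0.21 in controls (interval -0.08 to 0.51, adjusted p = 0.409). Without the 4 arrays apart in hair genes the knockout difference was 0.41 (adjusted p = 0.0381), and without knockout imiquimod replicate 1 alone it was 0.43 (adjusted p = 0.0376). The control difference without the 4 arrays was 0.34 (adjusted p = 0.0986). With the hair mean as a covariate the difference was 0.18 in knockouts (adjusted p = 0.378) and -0.01 in controls (adjusted p = 0.986).

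Il10rb, the second chain for IL-22 and IL-10, read 7.89, 7.89, 7.67, 7.80 and 7.52 in imiquimod-treated controls, against 6.99, 7.0, 7.58, 7.18 and 7.51 in mock controls. It read 7.58, 7.83, 7.78, 7.98 and 7.78 in imiquimod-treated knockouts, against 7.40, 7.55, 7.75, 7.25 and 7.50 in mock knockouts. The treated groups lay higher on average and overlapped their mock groups. Imiquimod raised it by 0.50 ± 0.12 in controls (SE, 5 arrays a group, adjusted p = 0.0101), and in knockouts the difference was 0.30 (interval 0.04 to 0.56, adjusted p = 0.0924). With the hair mean as a covariate the difference was 0.14 in knockouts (adjusted p = 0.409), and the control call was lost (0.28, adjusted p = 0.139). Without the 4 arrays apart in hair genes both genotypes passed (0.42, adjusted p = 0.0167 in knockouts, and 0.63, adjusted p = 0.00105 in controls), and without knockout mock replicate 3 alone the knockout difference was 0.36 (adjusted p = 0.0458).

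**Figure D4:**
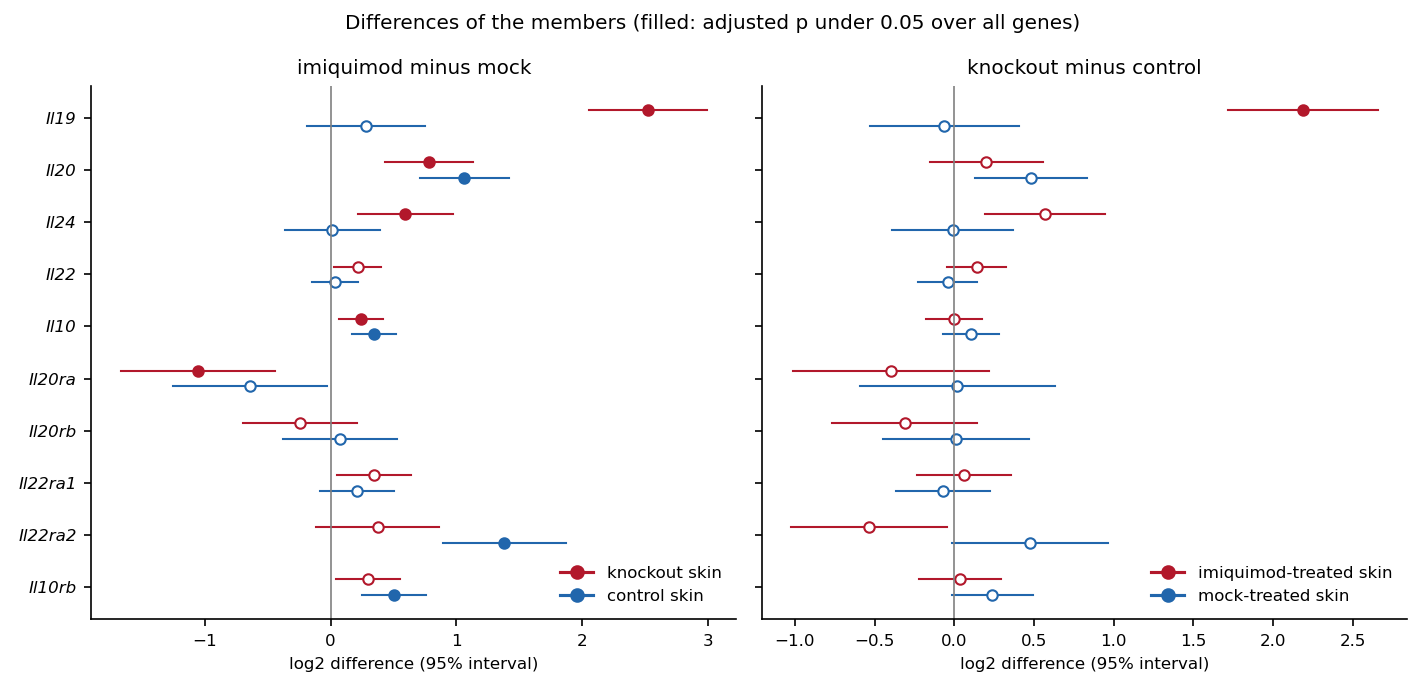
Log2 differences of the 10 members with their 95% intervals, imiquimod minus mock (left, knockout and control skin) and knockout minus control (right, imiquimod-treated and mock-treated skin); filled dots passed an adjusted p of 0.05 over all genes. Il19 in knockout skin at 2.53 and Il22ra2 in control skin at 1.38 are the largest rises with imiquimod, and Il19 at 2.19 is the 1 filled dot between genotypes.

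Il22ra2, the secreted antagonist of IL-22 known as a product of dendritic cells, rose with imiquimod in control skin. It read 5.90, 6.45, 5.52, 6.29 and 5.53 in imiquimod-treated controls, against 4.16, 4.58, 4.79, 4.2 and 5.05 in mock controls. It read 5.01, 5.47, 5.05, 5.72 and 5.77 in imiquimod-treated knockouts, against 5.02, 4.91, 5.79, 4.79 and 4.64 in mock knockouts. The control groups did not overlap, whereas the knockout groups did. Imiquimod raised it 2.61-fold in controls (1.38 ± 0.23 on the log2 scale with its SE, 5 arrays a group, adjusted p = 0.000442). In knockouts the difference was 0.37 (interval -0.12 to 0.86, adjusted p = 0.309). The difference between responses was -1.01 with an interval from -1.70 to -0.32, and it did not pass over all genes (adjusted p = 0.588), so the genotypes are not shown to differ. Without the 4 arrays apart in hair genes the knockout rise passed too (0.66, adjusted p = 0.0233), with 1.61 in controls (adjusted p = 1.55e-05) and a difference between responses of -0.94 (adjusted p = 0.531). With the hair mean as a covariate the difference was 0.06 in knockouts (adjusted p = 0.878) and 0.95 in controls (adjusted p = 0.00627), and that between responses was -0.89 (adjusted p = 0.263). Dendritic and Langerhans cell markers had 5 of 9 members lower with imiquimod in knockouts, H2-Aa, H2-Ab1, Clec10a, Epcam and Zbtb46, named after their values were seen. In controls 0 of 9 passed in limma, and 2 had an unadjusted p under 0.05, both lower. Their mean level was 5.87 to 6.30 in knockout and 5.90 to 6.41 in control skin under imiquimod, and 6.39 to 6.93 in knockout and 6.15 to 6.86 in control skin under mock treatment, and their part in the Il22ra2 values was not tested.

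The receptor genes tended to read lower in arrays with more hair signal of the same group. With group means removed, the correlation with the hair mean over the 20 arrays was -0.807 for Il20rb, -0.683 for Il10rb, -0.656 for Il22ra2, -0.624 for Il20ra and -0.583 for Il22ra1. It was 0.151 for Il19, 0.184 for Il24 and -0.368 for Il20. These are descriptions over arrays that share group and scale. Il20rb reached its highest value, 9.20, in control mock replicate 5 and its lowest, 7.73, in knockout imiquimod replicate 1, the arrays with hair means of 6.04 and 8.97. Il20ra and Il20rb, the 2 chains of 1 receptor, correlated at 0.755 within groups. The part of hair, muscle and fat in the receptor differences was not tested. Marker medians with imiquimod were below 0 for hair and fat in both genotypes. For muscle they were -0.97 in knockouts and -0.03 in controls.

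**Figure D5:**
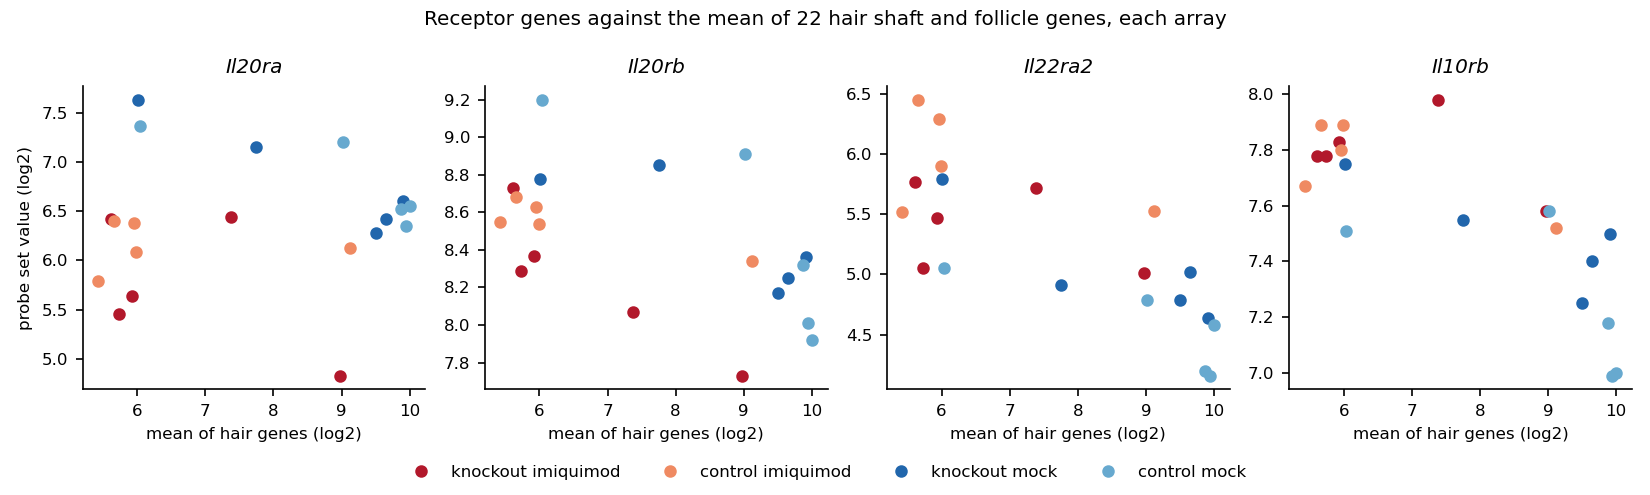
Log2 values of Il20ra, Il20rb, Il22ra2 and Il10rb (vertical axes) against the mean log2 value of 22 hair shaft and follicle genes (horizontal axes), with each array as a dot coloured by group. Within groups the arrays with more hair signal tended to read lower, with correlations between -0.807 for Il20rb and -0.624 for Il20ra after group means were removed.

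Genes that carry the signal onward were taken from a list of 20 measured genes of receptor, Janus kinase, STAT and feedback proteins and of other family members. In knockout skin 4 rose with imiquimod and 1 fell, against 11.1% of all genes called higher and 9.71% called lower. Bcl3, an IkB family regulator induced by STAT3, rose by 1.23 (adjusted p = 1.69e-07), Socs3, the feedback inhibitor of STAT3 signalling, by 0.98 (adjusted p = 0.00037) and Stat3 by 0.70 (adjusted p = 0.00116), while Cish, a feedback inhibitor of STAT5 signalling, fell by 0.42. In control skin 2 rose, Bcl3 by 0.62 and Stat3 by 0.50 (adjusted p = 0.000797 and 0.0245), and 1 fell, Ifnlr1, the interferon lambda receptor chain (-0.30, adjusted p = 0.0369). Of all genes 6.47% were called higher and 4.37% lower there. Between genotypes under imiquimod Bcl3 alone of the 20 passed (0.55, adjusted p = 0.0273), against 0.546% of all genes. The list's median difference was -0.003 in knockouts and 0.05 in controls, close to that of all genes.

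Of 31 measured keratinocyte genes that these cytokines are known to raise, 24 rose with imiquimod in knockouts and 18 in controls, and 1 fell in each, Plat, which encodes tissue plasminogen activator. The median was 2.03 in knockouts and 0.90 in controls, against -0.002 and -0.004 for all genes. In knockouts the largest rises were Defb3, a beta-defensin (5.92), S100a8, a calprotectin subunit (5.62), and Saa3, an acute-phase protein (5.51). In controls they were Serpinb3a, a squamous serpin (6.24), Krt6b, a stress keratin (5.15), and Il1f6, which encodes IL-36 alpha (4.76). Under imiquimod 6 of the 31 were higher in knockouts than in controls, led by Saa3 (2.35, adjusted p = 0.0323), S100a8 (2.04, adjusted p = 0.0452) and Defb3 (1.95, adjusted p = 0.0117). Many of these genes also respond to IL-17 and IL-1, so the list is not particular to the IL-20 family.

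Of 15 measured differentiation genes that IL-22 is known to lower in keratinocytes, more rose than fell. In knockouts 7 rose, led by Flg, encoding filaggrin (2.23), Casp14, a cornification protease (2.16), and Krt1 (1.93), and 3 fell, Krt77 (-3.59), Lce1m (-2.37) and Flg2 (-2.27). In controls 9 rose, led by Flg (2.74), Krt1 (2.63) and Hrnr, encoding hornerin (2.56), and 2 fell, Krt77 (-1.30) and Kazald1 (-0.35). The same 3 that fell in knockouts were also lower in knockouts than in controls under imiquimod, Krt77 at -2.32, Flg2 at -2.0 and Lce1m at -1.83 (adjusted p = 0.00186, 0.00245 and 0.0364).

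Upstream, 14 measured genes of cytokines and receptors that induce the IL-20 family had 9 members higher with imiquimod in knockouts and 4 in controls. Among these 14, Il1b rose by 3.09, Il1a by 2.63 and Il6 by 1.68 in knockouts, and Il1a by 2.90, Il17c by 0.67 and Il23a by 0.58 in controls. The list held 17 genes, and it named IL-36 alpha by a symbol other than Il1f6, the one used here. IL-36 alpha was therefore not counted among the 14, although Il1f6 rose by 4.76 in controls. Between genotypes under imiquimod 5 of 14 were higher in knockouts, led by Il1b (2.83, adjusted p = 0.00186), Il17f (1.19, adjusted p = 0.00126) and Il17c (0.90, adjusted p = 0.02). For knockout response minus control response 0 of the 14 passed in limma, and 6 had an unadjusted p under 0.05, all higher. The mean level of the 14 in the imiquimod-treated knockouts was 5.75, 5.98 and 6.10 in replicates 1, 2 and 4, against 5.47 and 5.5 in replicates 3 and 5. The same split was seen for Il19, Il24 and the hair mean. Of 12 neutrophil markers measured, 1 was called between genotypes under imiquimod, S100a8, which keratinocytes also make, against 0.374% of all genes called higher. The median difference of the 12 was 0.43, against 0.006 for all genes. An unadjusted p under 0.05 was found for 2218 of 22180 genes and for 6 of the 12 markers, all higher. Their mean level was 5.26 to 6.29 in knockout and 4.55 to 5.11 in control skin under imiquimod, and 4.31 to 4.58 in knockout and 4.25 to 4.44 in control skin under mock treatment. The part of neutrophils in the Il19 difference was not tested.

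Of 18 measured genes in a list of genes near the members, 4 rose with imiquimod in knockouts and 2 in controls, against 11.1% and 6.47% of all genes. The list's median difference was 0.02 in knockouts and 0.08 in controls, against -0.002 and -0.004 for all genes. Yod1, a deubiquitinase gene, was the 1 gene of the list lower in imiquimod-treated knockouts than controls (-0.66, adjusted p = 0.0307), against 0.171% of all genes. On chromosome 1 the gene next to Il10 is Mapkapk2, a kinase that phosphorylates tristetraprolin, which rose by 0.25 in knockouts (adjusted p = 0.0302), against 0.10 in controls (adjusted p = 0.497). On the other side of Il24, Fcmr, the IgM receptor gene, differed by -0.03 in knockouts and -0.09 in controls, and Pigr, the polymeric immunoglobulin receptor gene, by -0.23 and -0.07, and neither passed. Il22ra2 and Il20ra are neighbours on chromosome 10, and their imiquimod differences had opposite signs, 0.37 and -1.06 in knockouts and 1.38 and -0.64 in controls. Near Il22ra1 on chromosome 4, Grhl3, an epidermal transcription factor gene, rose by 1.56 in knockouts and 1.39 in controls (adjusted p = 1.24e-07 and 8.45e-07). Of the interferon receptor genes around Il10rb on chromosome 16, Ifngr2 rose in knockouts (0.36, adjusted p = 0.023) and differed by 0.26 in controls (adjusted p = 0.145). Ifnar1 and Ifnar2 differed by 0.12 and 0 in knockouts and by -0.07 and 0.23 in controls, without passing.

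Ordered by mean, Il19 ran from imiquimod-treated knockouts through imiquimod-treated controls and mock controls to mock knockouts, and a gap without overlap between neighbours occurred at the first step only. For the other 9 members every pair of groups next to each other in the order overlapped. Il20 and Il10rb were highest in imiquimod-treated knockouts, followed by imiquimod-treated controls, mock knockouts and mock controls. Il22ra2 was highest in imiquimod-treated controls, followed by imiquimod-treated knockouts, mock knockouts and mock controls.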

How the data were processed

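Total RNA of abdominal skin was isolated with Trizol and a column, and 200 ng were labelled by the Affymetrix WT PLUS procedure, per the labels' protocols. Probe set values came in 1 deposited table and were taken as log2 from their range of 1.41 to 13.33; the sources used here give no log base, summarisation, normalization or software for what the authors did. Probe sets were named through the platform table: 23521 of 41345 had 1 symbol, 1814 had several and 16010 had no entry. Symbols checked through Entrez identifiers against RefSeq GRCm38.p6 gave 0 changes. The brightest probe set stood for a gene (22180 genes). No detection calls were used.

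Differences were fitted in R 4.3.3 with limma 3.58.1 (lmFit, eBayes), 1 mean per group over all 20 arrays (16 residual and 3.99 prior degrees of freedom), two-sided, with Benjamini-Hochberg adjustment over 22180 genes in each of 5 contrasts. The median standard error of a difference between a pair of groups was 0.11, and the number of arrays limited the precision. Folds are antilogs of log2 differences. The fit was tested on simulated data. The members and the 16 lists (5 of the pathway, 11 of cell type markers) were chosen with earlier results of these data known. Named genes were the members, Zfp36, the 3 largest rises and falls past the threshold per pathway list and contrast, the 3 genes most like each member, and neighbours on the chromosome; exceptions are marked. Alternatives were the groups of a contrast alone, a replicate block, trended or robust prior variance, array weights, median centring, a further quantile normalization, leaving out the 30% dimmest genes, means of probe sets, the hair mean as a covariate and each array left out; dropping the 4 arrays with unusual hair content was added once the data had been seen. Replicate numbers are not said to pair animals: same-numbered arrays correlated from -0.709 to 0.426 after group means were removed.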

Additional observations from a re-analysis of the deposited data

Results flagged for a closer look

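The response of Il19 to imiquimod differed between genotypes by the test of that difference itself: knockout response minus control response was 2.25 on the log2 scale (limma, adjusted p = 0.00549). Without the 4 arrays that stood apart in hair genes it was 1.99, and the call was lost (adjusted p = 0.0852). Every imiquimod-treated knockout array was above every mock knockout array. No array of the 10 members was set apart from its own group of 5 by Dixon's test, in 40 groups of values tested, where chance alone sets apart about 1 group in 20.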

How the results depend on the processing

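Of the 11 member differences that passed, 6 kept their call under every alternative in which they were tested. These were Il19 with imiquimod in knockouts and between genotypes under imiquimod, and Il20 with imiquimod in both genotypes. The others were Il10 and Il22ra2 with imiquimod in controls. Il10 was among the dimmest genes, so the fit that left those genes out did not test it. No called difference changed sign. With 1 array left out, the number of members called ran from 3 to 5 (5 as reported) for imiquimod in knockouts, and stayed at 4 in controls, 1 between genotypes under imiquimod, 0 in mock skin and 1 for the difference in responses. From the 2 groups alone 3 members were called with imiquimod in knockouts, Il24 and Il10 losing their calls, and without the 4 arrays apart in hair genes 0 members were called for the difference in responses. Over all genes, the number called with imiquimod in controls was 3697 with array weights (2404 as reported). Between genotypes under imiquimod (121 as reported) it was 17 from the 2 groups alone, 78 with the replicate block, 242 with array weights, 336 with the hair covariate, 54 without the 4 arrays and 45 to 174 with 1 array left out. In mock skin (2 as reported) it was 0 from the 2 groups alone, 4 with array weights, 1 with median centring, 5 with the hair covariate, 1 without the 4 arrays and 0 to 4 with 1 array left out. For the difference in responses (4 as reported) it was 8 with array weights, 13 with the hair covariate and 4 to 8 with 1 array left out. The Zfp36 difference in mock skin ran from -2.45 to -1.54 with 1 array left out, and without control mock replicate 3 its exact permutation p was 0.0556. Under the replicate block Il10 lost its call in knockouts (adjusted p = 0.0508), and no other member changed. The cause of these changes was not tested. Low signal limits Il22 and Il10, since no measure of background was used here.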
